A study of Bos taurus with 8 samples.

Results

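Paternally expressed imprinted genes are transcribed mainly from the chromosome copy inherited from the father. The 10 genes described here are PLAGL1, MEST, PEG3, PEG10, NNAT, SNRPN, IGF2, DLK1, NAP1L5 and SGCE, chosen by name, and all 10 were present in the files. Together they named 74 of the 902984 windows of about 3 kb into which the bovine genome (UMD v3.1) was divided, and 10 of the 24023 named genes on autosomes. MIRA-Seq had been run on skin (dermal) fibroblasts from 8 heifers of similar age, 4 of the Holstein dairy breed and 4 of the Angus beef breed. Each animal gave 1 culture and 1 library, at passage 5, and no treatment or genetic change was applied in either breed. In this assay, sonicated genomic DNA is captured by methyl-CpG-binding proteins, so windows with more methylated CpG yield more reads. Libraries are named by breed and animal number. The data are DNA reads only, and neither the fibroblast identity of the cultures nor the parental origin of any read could be checked in them.

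Imprinted genes carry methylation marks that were set in the egg or the sperm and are then kept in body cells on 1 parental copy. For many paternally expressed genes, PLAGL1, MEST, PEG3, PEG10, NNAT, SNRPN and NAP1L5 among them, the known mark is methylation of the maternal copy at the promoter. IGF2 and DLK1 are instead governed largely by marks outside their promoters that are methylated on the paternal copy. A promoter methylated on 1 copy differs from most active promoters, which lack methylation on both. The pull-down cannot tell 1 methylated copy from partial methylation of both.

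The total over windows was 18691111 to 35525554 reads per library, and CPM (counts scaled to a common library total) were computed on these totals. At this depth, 3 reads in a window, the smallest count told here from 0, stood for 0.0844 to 0.161 CPM. Reads were concentrated in few windows in some libraries, above all in Angus 3 and Holstein 1, whose scaling factors by the trimmed mean of M-values (TMM) were 0.677 and 0.817, against 0.952 to 1.22 in the other 6. These 2 libraries also gave low CPM values at many of the 10 genes, and the part of their scaling in this was not tested. Percentiles within a library do not depend on this scaling. Log2 ratios depend on it slightly, through the pseudocount of 0.1 CPM, most in windows near 0. No 2 libraries of a breed agreed within sampling noise (chi-square per window of 8.74 to 39.6).

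Each gene's start was represented by its first window in the direction of its strand. The files give 1 gene name and at most 1 coding exon per window and no transcription start sites. First windows of the 10 genes were mostly read-rich. Their mean CPM over the 8 libraries ranked at a median percentile of 88.7 among the first windows of the 24013 other autosomal genes, and 9 of the 10 lay above the 50th percentile. The median first window of the other genes held 0.404 CPM, and 1.80 CPM marked their 90th percentile. The other windows of the 10 genes were also fairly rich. Their mean ranked at a median percentile of 74.9 among such means of other autosomal genes (NAP1L5 has no other window). These ranks describe the genes and were not tested, since the genes were chosen with results of these data known.

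PEG3, a zinc finger gene, had the highest first window. That window lists coding exon 4, so whether it holds the start of PEG3 was not resolved. The unnamed window just upstream held 2.24 CPM in Holstein and 2.00 CPM in Angus on average. The first PEG3 window, on chromosome 18 from 64279898 to 64282897 (- strand), held 6.42, 6.97, 6.81 and 8.16 CPM in Holstein 1 to 4. It held 4.99, 8.38, 6.38 and 10.6 CPM in Angus 1 to 4. The mean was 7.35 ± 1.71 CPM (SD, n = 8), at percentile 99.5 of first windows, and no library placed it under percentile 99.1. NNAT, a proteolipid gene, followed with 2.89 ± 0.59 CPM (SD, n = 8; percentile 95.3) on chromosome 13 from 67116797 to 67119796 (+ strand). NAP1L5, a nucleosome assembly protein gene held by a single window, had 2.09 ± 0.529 CPM (SD, n = 8; percentile 91.9). PEG10, a gene derived from a retrotransposon, had 1.82 ± 0.539 CPM (SD, n = 8; percentile 90.2). These 4 were the only genes of the 10 above the 90th percentile.

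MEST, a hydrolase gene, and PLAGL1, a zinc finger regulator of growth, had near-equal first windows, with 1.65 ± 0.589 and 1.64 ± 0.57 CPM (SD, n = 8; percentiles 88.8 and 88.6). The first window of IGF2, which encodes a fetal growth factor, held 1.31 ± 0.399 CPM (SD, n = 8; percentile 84.97). SGCE, a sarcoglycan gene, had 0.98 ± 0.301 CPM (SD, n = 8; percentile 79.0). DLK1, whose protein restrains fat cell differentiation, had 0.603 ± 0.252 CPM (SD, n = 8) at percentile 65.4, with single libraries between 39.2 and 76.8. SNRPN, which encodes a splicing protein, stood at the other end with 0.0669 ± 0.0636 CPM (SD, n = 8), from 0 to 4 reads per library, at percentile 3.21. From NAP1L5 down to SGCE, the means of neighbours in this order differed by less than the larger of their SDs. The steps from PEG3 to NNAT, NNAT to NAP1L5, SGCE to DLK1 and DLK1 to SNRPN exceeded both SDs.

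**Figure D1:**
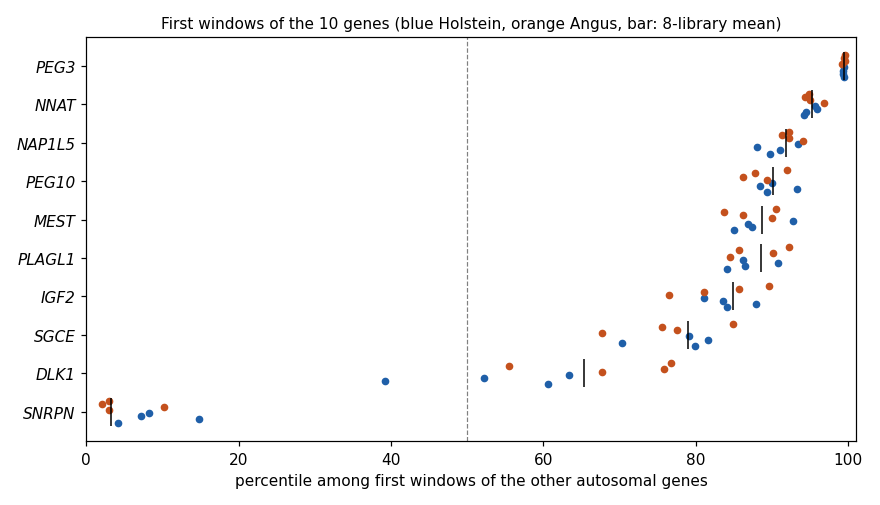
Percentile of the first window of each of the 10 genes among first windows of the other autosomal genes (x axis, percent), 1 point per library (blue Holstein, orange Angus), with a bar at the rank of the 8-library mean. PEG3 sits above 99 in every library, SNRPN at 14.9 or below, and the breeds overlap within each gene. In DLK1 every Angus library but Angus 3 (55.5) lies above every Holstein library (highest 63.3). In SNRPN every Angus library but Angus 2 (10.2) lies below every Holstein library (lowest 4.21).

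A second description set each first window beside the 2 windows on each side of it, whatever their names. PLAGL1 stood out most. Its first window, on chromosome 9 from 82473251 to 82476250 (- strand), held 0.961, 1.60, 2.08 and 1.72 CPM in Holstein 1 to 4. In Angus 1 to 4 it held 1.26, 1.98, 0.94 and 2.57 CPM. The 4 windows around it averaged 0.09 CPM, and the first window exceeded them by 3.17 on the log2(CPM + 0.1) scale, with the excess seen in 8 of 8 libraries. That contrast ranked at percentile 99.6 of autosomal genes. The reads inside this window reached a highest per-base coverage of 5 to 13 per library, against at most 3 in each of the 4 windows around it.

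NAP1L5 showed the same isolated shape. It lies inside HERC3, a ubiquitin ligase gene on the opposite strand, and the windows on both sides carry the name HERC3. Its window on chromosome 6 from 37508282 to 37511281 (+ strand) held 1.42, 2.12, 1.74 and 2.87 CPM in Holstein 1 to 4 and 2.23, 2.33, 1.41 and 2.57 CPM in Angus 1 to 4. The lowest of these values lay above every value of the 4 HERC3 windows around it, whose means were 0.279, 0.0689, 0.121 and 0.631 CPM. The window exceeded them 5.91-fold on the log2(CPM + 0.1) scale in 8 of 8 libraries, at percentile 99.0. Of the other autosomal genes, 11.6% had a first window more than 2-fold above its surroundings and 2.59% more than 4-fold. Of the 10 genes, 3 (PLAGL1, NAP1L5 and NNAT) were above 2-fold and 2 (PLAGL1 and NAP1L5) above 4-fold.

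NNAT lies within BLCAP, and its first window exceeded its surroundings 2.07-fold in 8 of 8 libraries. The adjoining window, which holds coding exon 1 of BLCAP, was nearly as rich (2.64 ± 0.635 CPM, SD, n = 8). The second NNAT window held 1.35 ± 0.383 CPM, and the window after it, also named BLCAP, 0.333 ± 0.101 CPM. The highest values thus lay in 2 adjoining windows, 1 of each gene. The contrast of NNAT with its surroundings was the most uniform of the 10, with an SD of 0.08 on the log2 scale over the 8 libraries.

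PEG10 and SGCE start from neighbouring windows on chromosome 4 and run in opposite directions. The first window of PEG10 (11912205 to 11915204, + strand) held 1.37, 2.55, 1.78 and 2.17 CPM in Holstein 1 to 4 and 1.61, 1.53, 1.07 and 2.51 CPM in Angus 1 to 4. The first window of SGCE (11909205 to 11912204, - strand) held 0.759, 0.866, 1.25 and 1.21 CPM in Holstein 1 to 4 and 0.733, 1.01, 0.571 and 1.44 CPM in Angus 1 to 4. Both windows list coding exon 1 of their gene. On either side of the pair the level dropped to 0.262 ± 0.154 CPM in SGCE and 0.128 ± 0.0839 CPM in PEG10 (SD, n = 8). The pair formed a read-rich stretch of 2 windows, 1 of each gene. Since reads were counted per window, how they divide between the 2 promoters was not resolved.

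Within PEG10 the levels were uneven. The third window, with coding exon 2 of the retrotransposon-derived reading frame, held 8.54 ± 1.38 CPM (SD, n = 8), from 152 to 297 reads per library. The windows before and after it held 0.128 and 0.673 CPM. PEG3 was rich throughout, with 3.49 to 8.85 CPM in its 5 windows, the highest in the second. MEST, in contrast, did not stand out from its surroundings. Its first window, with coding exon 1 on chromosome 4 from 95064605 to 95067604 (+ strand), lay only 1.19-fold above them on the log2(CPM + 0.1) scale, at percentile 68.3. The 2 unnamed windows upstream held 1.56 ± 0.581 and 1.39 ± 0.45 CPM (SD, n = 8).

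**Figure D2:**
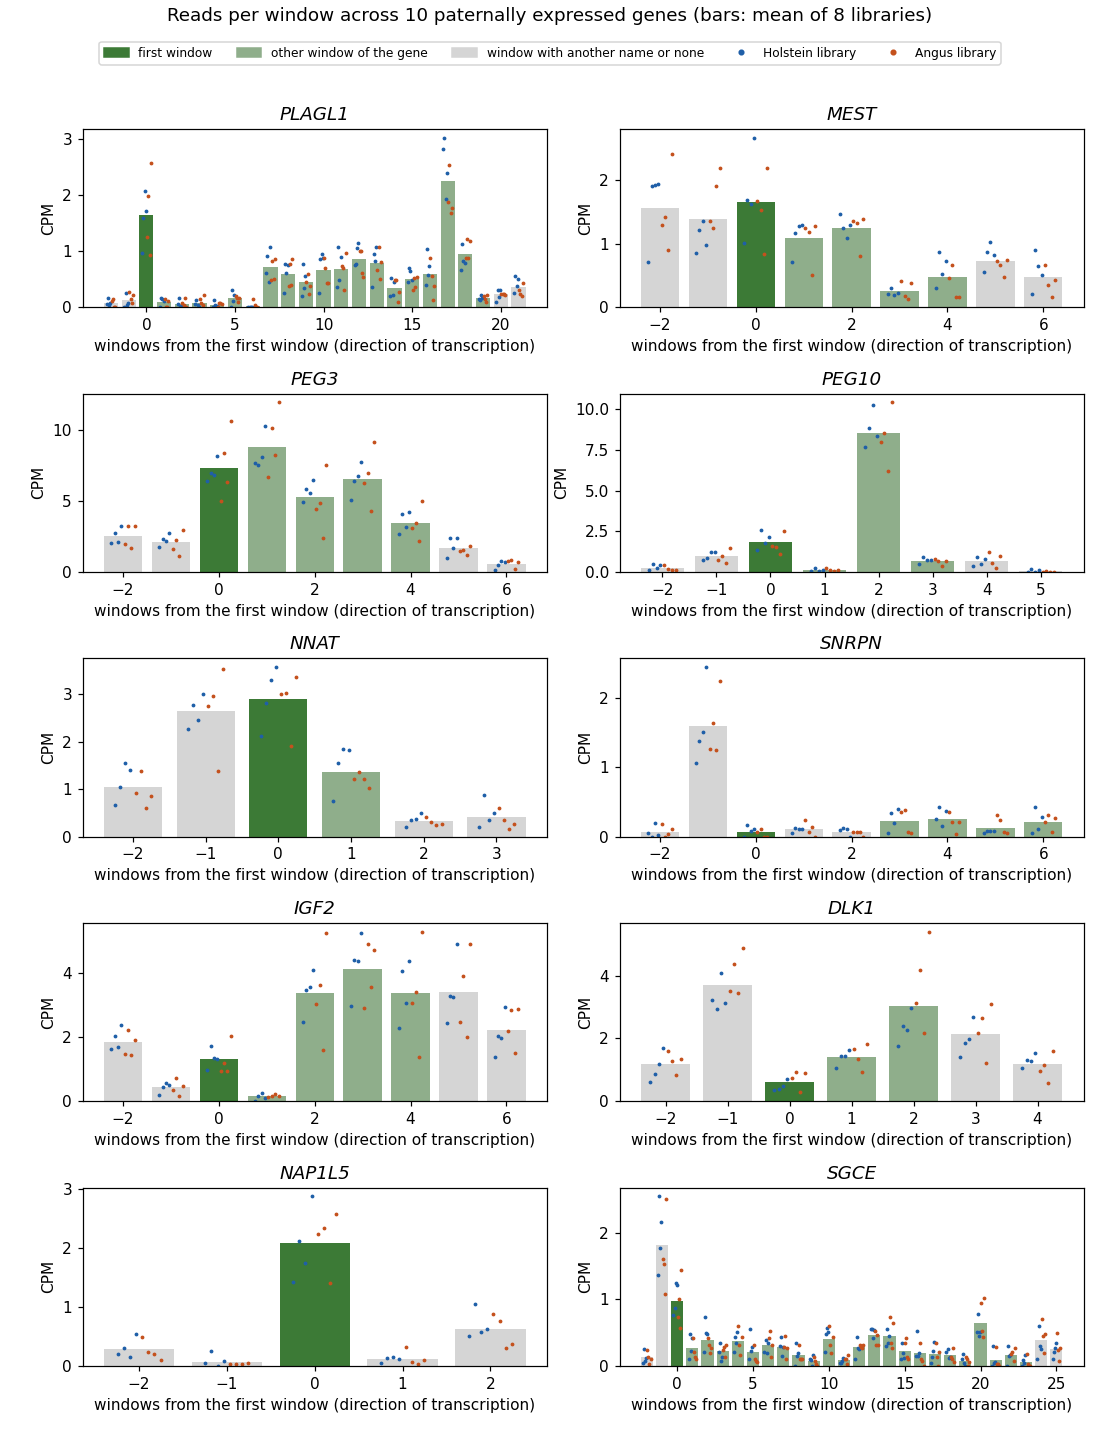
CPM per window (y axis) along each of the 10 genes and 2 windows on each side, by distance in windows from the first window in the direction of transcription (x axis). Bars are means of 8 libraries, dark green for the first window, light green for other windows of the gene and grey for other windows, and points are libraries. In PLAGL1 and NAP1L5 the first window stands above the 4 windows around it, in PLAGL1 the 18th window is higher still (2.26 CPM), in SNRPN the rich window lies 1 window upstream, and PEG10 has its peak of 8.54 CPM in the third window.

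For SNRPN the name in the files decided the result. SNRPN and SNURF are encoded by 1 shared transcript, and in the files windows of both names alternate at the start of chromosome 21. The window that holds coding exon 1 of SNURF (23263 to 26262, - strand) lies 1 window upstream of the first window named SNRPN. It held 1.06, 1.38, 1.51 and 2.45 CPM in Holstein 1 to 4 and 1.26, 1.63, 1.24 and 2.25 CPM in Angus 1 to 4. The breeds overlapped, and each value exceeded every value of the adjoining windows named SNRPN and LOC100139090, which held 0.0669 and 0.0729 CPM on average. When the windows of both names were joined, a choice made after the values were seen, the first of the 8 windows held 1.60 ± 0.497 CPM (SD, n = 8; percentile 88.2). It then exceeded its surroundings by 3.05 on the log2(CPM + 0.1) scale (percentile 99.6), beside 3.17 for PLAGL1.

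Next, the first window was compared with the mean of the gene's other windows within each library, by an exact two-sided sign-flip permutation test over the 8 libraries for every autosomal gene with at least 3 windows and 80 reads. Benjamini-Hochberg adjustment was over all 15870 genes tested, and a call needed FDR < 0.1 and a 2-fold difference. Of the 10 genes, 8 were tested. NNAT and NAP1L5 have too few windows. The first window was called higher in 2 of the 8 (PLAGL1 and SGCE), against 6.99% of all genes tested, and lower in 2 (IGF2 and DLK1), against 32.0%. Across the tested genes outside the 10, the median log2 ratio was -0.52 and 29.6% had a higher first window on average. For the 8 the median was -0.25. A smallest p of 0.00781 is all that 8 libraries allow, so an adjusted p passes only because many genes differ.

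SGCE had the largest excess, with a log2 ratio of 1.61 ± 0.48 (SD, n = 8; adjusted exact sign-flip p = 0.0129), positive in 8 of 8 libraries. At a pseudocount of 0.5 CPM its log2 ratio was 0.96, so the call was lost, while PLAGL1 stayed called with 1.02. Its other 23 windows averaged 0.252 CPM, at percentile 20.02 of autosomal genes. In PLAGL1 the log2 ratio was 1.42 ± 0.40 (SD, n = 8; adjusted exact sign-flip p = 0.0129), also positive in 8 of 8. The 5 windows next to its start held 0.0483 to 0.161 CPM on average, and the highest window of the gene was the 18th, with 2.26 ± 0.514 CPM (SD, n = 8), which lists no coding exon. MEST missed the 2-fold limit by little, with a log2 ratio of 0.97 ± 0.31 (SD, n = 8) and 8 of 8 libraries positive. PEG3 had 0.27 ± 0.18 (SD, n = 8) with 7 of 8 positive.

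The first window was poorer than the rest in the other 4. In DLK1 the log2 ratio was -1.76 ± 0.22 and in IGF2 -1.02 ± 0.22 (SD, n = 8; adjusted exact sign-flip p = 0.0129 for each), negative in 8 of 8 libraries. The IGF2 call rested on a mean close to the limit. It was lost without Holstein 4 (-0.98), without Angus 1 (-0.999) and without Angus 2 (-0.99), each then just under 2-fold. In PEG10 the log2 ratio was -0.77 ± 0.26 (SD, n = 8), and it was 1.30 against the median of the other windows, since the mean is set by the third window. In SNRPN it was -0.88 ± 0.31 (SD, n = 8), and with the SNURF windows joined it was 2.76 ± 0.54 (SD, n = 8; adjusted exact sign-flip p = 0.0129), so that 3 of 8 genes were then called higher.

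In IGF2 and DLK1, the windows after the first were rich in reads, as they were in PEG3 and PEG10. In IGF2, on chromosome 29, the first window (50052219 to 50055218, + strand) held 1.31 CPM and the second 0.157 CPM. Windows 3, 4 and 5 held 3.39 ± 1.08, 4.14 ± 0.883 and 3.37 ± 1.23 CPM (SD, n = 8), the third with coding exon 1 and the fourth with coding exon 2. The mean of its other windows stood at percentile 90.9 of autosomal genes, against 98.6 for PEG3, 92.7 for PEG10 and 86.9 for DLK1. In DLK1 on chromosome 21 the level went from 0.603 CPM in the first window (67274663 to 67277662, + strand) through 1.42 to 3.03 CPM in the third. The unnamed window just upstream of DLK1 held 3.70 ± 0.675 CPM (SD, n = 8), above the mean of each DLK1 window. With the higher of the first and the upstream window in its place, the DLK1 log2 ratio was 0.75. This choice cannot lower the ratio of any gene.

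**Figure D3:**
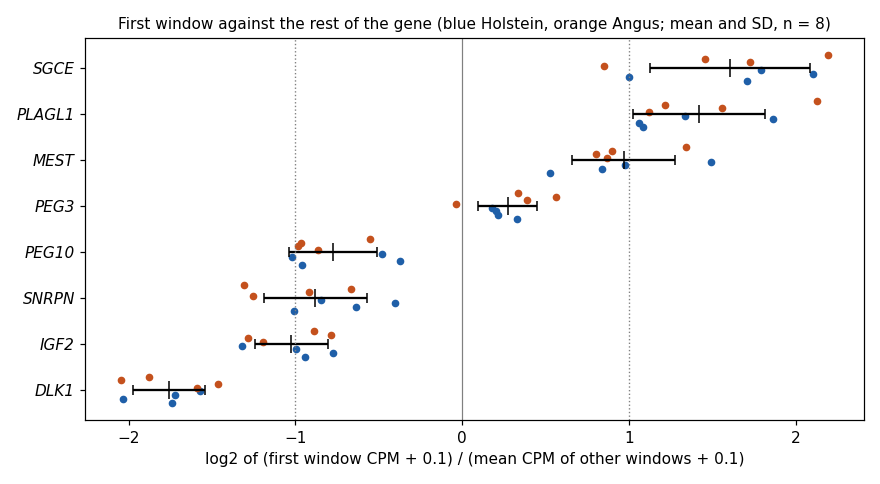
Log2 ratio of the first window to the mean of the gene's other windows (x axis, CPM + 0.1) for the 8 genes with at least 3 windows. Points are libraries (blue Holstein, orange Angus), black marks the mean and SD (n = 8), and dotted lines mark 2-fold. All points of SGCE, PLAGL1 and MEST lie above 0, and all points of PEG10, SNRPN, IGF2 and DLK1 below 0.

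A list of maternally expressed genes and a list of domain neighbours were set beside the 10. Whether each neighbour is itself imprinted was not assessed. Of 20 maternally expressed genes looked for, 18 were in the files, with a median first-window percentile of 42.0 and 8 of 18 above the 50th. First against rest, 11 were tested, with 1 called higher (UBE3A) and 5 lower (ASB4, COPG2, IGF2R, GRB10 and GNAS). Of 48 neighbours of the 10 genes in their imprinted domains, 41 were in the files (15 of them also among the 18), with a median percentile of 71.4. Of the 29 neighbours tested, 3 were called higher and 8 lower. The 3 were SNURF, with a log2 ratio of 3.18 ± 0.75, ZIM2, a zinc finger gene next to PEG3, with 1.504 ± 0.453, and UBE3A, a ubiquitin ligase gene, with 1.13 ± 0.36 (SD, n = 8; adjusted exact sign-flip p = 0.0129 for each). The 8 were ASB4, COPG2, PON1, BEGAIN, NAP1L4, ZNF264, CD81 and RTL1. The difference between these lists was not tested.

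By the distance of log2(CPM + 0.1) over the 8 libraries, the first windows most like that of PEG3 were those of S1PR4 (distance 0.25, 7.35 CPM), MAEA (0.36, 7.63 CPM) and P2RY11 (0.38, 7.51 CPM), none of them in the lists above.

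The breeds were then compared window by window with edgeR's likelihood-ratio test, as in the study's methods. Of the 74 windows of the 10 genes, 23 passed the filter (CPM ≥ 1 in 4 or more libraries) and were tested, in 9 of the genes. The other 51 were too poor in reads for this test. SNRPN had none, and neither did the first window of DLK1. None of the 23 was called at FDR < 0.1 and FC ≥ 2, against 0.231% of all 115360 windows tested. edgeR's quasi-likelihood test also called 0 of the 23, against 0.122% of all windows, and DESeq2 called 0, against 0.122% as well. At an unadjusted p under 0.05 there was 1 of the 23, by both edgeR tests, against 4.94% of all windows by the likelihood-ratio test. Among the 8 first windows tested, log2 fold changes of Holstein over Angus lay between -0.22 (PEG3) and 0.13 (PEG10), with standard errors of 0.15 to 0.24. Their approximate 95% intervals ran from -0.59 at the lowest to 0.52 at the highest, so a 2-fold breed difference lay outside each of them. Scaling to total counts in place of TMM moved the median of all windows by 0.14 on the log2 scale toward Holstein, and the signs of NNAT and IGF2 then turned.

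The SNURF window described above did not separate the breeds either (1.60 CPM in both, log2 fold change -0.08, edgeR FDR 1.00). For gene totals, summed over all windows of a gene, all 10 genes were tested and none was called, against 0.0567% of 19389 genes. Leaving DLK1 aside, log2 fold changes lay between -0.20 and 0.03. Of the 38 neighbours and 15 maternally expressed genes tested, 0 were called by gene totals, and 0 had an unadjusted p under 0.05, against 2.08% of all genes. The quasi-likelihood test called 0 of the 10 gene totals, and its share of all genes is not given here.

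**Figure D4:**
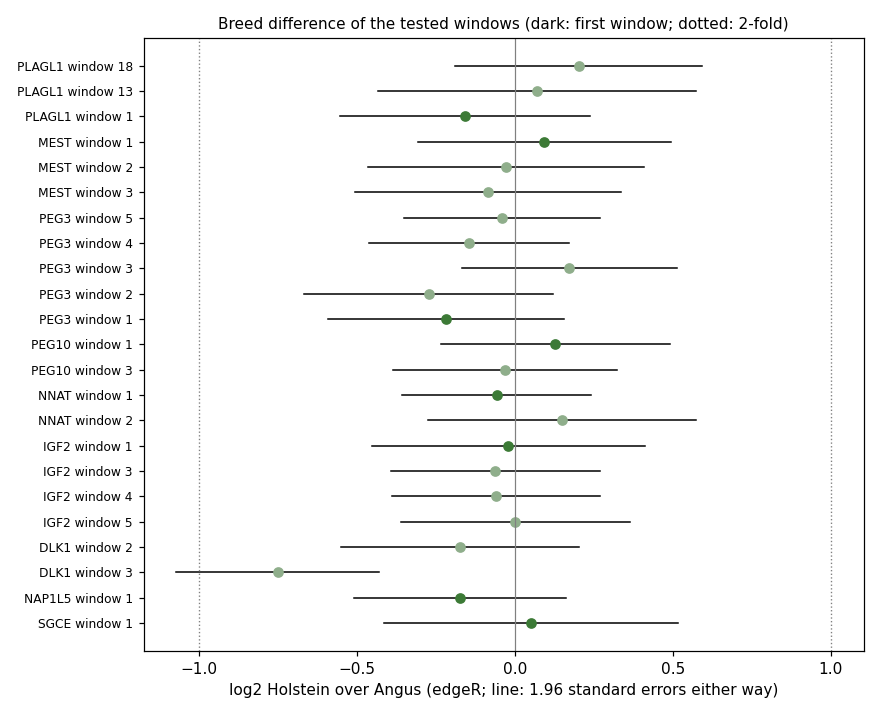
Log2 fold change of Holstein over Angus (x axis) for the 23 tested windows of the 10 genes, dark green for first windows, with lines for approximate 95% intervals and dotted lines at 2-fold. The third window of DLK1 is the only one whose line does not cross 0.

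The single low p among the tested windows also belonged to DLK1. The third DLK1 window, on chromosome 21 from 67280663 to 67283662 with coding exon 5, held 1.77, 2.38, 2.27 and 2.96 CPM in Holstein 1 to 4. It held 3.14, 4.17, 2.18 and 5.40 CPM in Angus 1 to 4. On plain totals the breeds overlapped, through Angus 3. After TMM scaling every Angus library (lowest 3.23 CPM) lay above every Holstein library (highest 2.43 CPM). Breeds that did not overlap, with either breed the higher, made up 2.63% of all windows tested. The means were then 2.20 ± 0.156 and 3.74 ± 0.643 CPM (SD, n = 4). The log2 fold change was -0.75 (SE 0.16), with an FDR of 0.00372 by edgeR's likelihood-ratio test and 0.0511 by its quasi-likelihood test, so the window passed the FDR limit but not the 2-fold limit. Of all windows tested, 0.368% passed that FDR limit by the likelihood-ratio test with no minimum fold change. With total counts in place of TMM the edgeR FDR was 1.00, and with no CPM filter it was 0.553.

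The other windows tested around it gave smaller differences, and none passed. The second DLK1 window had a log2 fold change of -0.17 (SE 0.19), and the 2 unnamed windows downstream had -0.28 and 0.19 (edgeR FDR 1.00 for each). The 2 unnamed windows upstream of the gene had -0.33 and -0.41, from the farther to the nearer (edgeR FDR 1.00 and 0.776). The first DLK1 window did not reach the filter, and with no filter its log2 fold change was -0.63 (SE 0.30, edgeR FDR 1.00). For the DLK1 total the log2 fold change was -0.61 (SE 0.17), with an edgeR FDR of 0.224 by the likelihood-ratio test and 1.00 by the quasi-likelihood test. Without Angus 1 the likelihood-ratio FDR was 0.0226, and the change stayed under 2-fold. Among the tested windows named for the genes described here, the next 2 by p were the second and the first of PEG3. Their log2 fold changes were -0.27 (SE 0.20) and -0.22 (SE 0.19), with an edgeR FDR of 1.00 for both. Unnamed windows beside the genes are outside this ranking. The unnamed window just upstream of MEST had a log2 fold change of -0.78 (SE 0.25), larger in size than that of the third DLK1 window. Its edgeR FDR was 0.280 by the likelihood-ratio test and 0.541 by the quasi-likelihood test, so it did not pass.

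**Figure D5:**
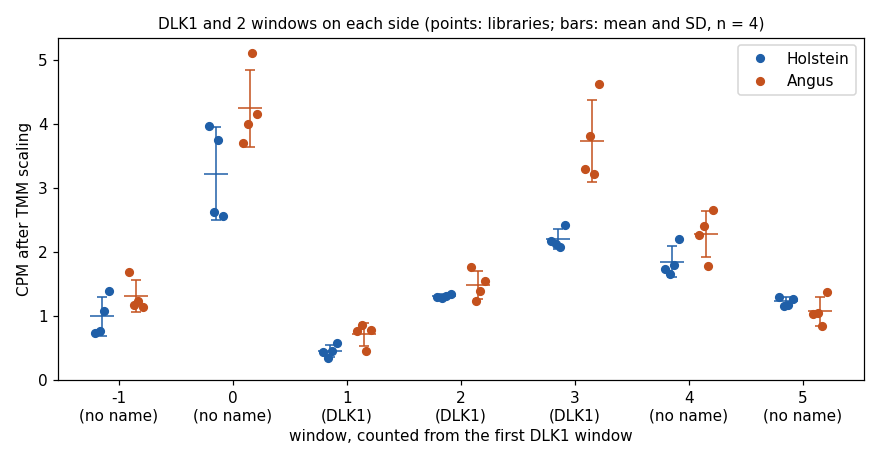
CPM after TMM scaling (y axis) in the 3 windows of DLK1 and 2 windows on each side (x axis, window 1 is the first DLK1 window), with 1 point per library (blue Holstein, orange Angus) and bars for mean and SD (n = 4). The breeds separate in window 3, between 2.43 and 3.23 CPM, and in no other window shown.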

How the data were processed

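MIRA-Seq libraries of 4 Holstein and 4 Angus fibroblast cultures were used. Reads had been filtered on quality and mapped to UMD v3.1 by the authors in NextGENe 2.3.4, and the authors deposited raw read counts per window of about 3 kb, without normalization. CASAVA 1.7 is named in the submitters' processing notes. The deposited files also hold per-base coverage of each window, a signal not scaled for depth. How duplicate and multiply matching reads were handled is not given in the sources used here. No input library was used here, so CpG density, copy number and methylation were not separated.

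CPM used each library's total over windows. The genes, the lists and the rule for named windows (all 10 genes, and the 3 of their windows with the smallest breed p where none was called) were chosen with earlier results of these data known. Breeds were compared in R 4.3.3 with edgeR 4.0.16 (TMM, likelihood-ratio test, Benjamini-Hochberg adjustment over all features tested), and the sources used here name no normalization for this test. The breed p-values weigh a breed difference against the spread between libraries of a breed. With a single culture and library per animal, the spread of animals, cultures and libraries was not separated. The sign-flip p-values ask whether a ratio within a library keeps its direction over the 8 libraries. A standard error was taken as the size of the log2 fold change over the square root of the chi-square value that gives its p. Ratios, ranks and sign-flip tests (pseudocount 0.1 CPM) used Python 3.11.15, numpy 2.4.6 and pandas 2.3.3. Alternatives were DESeq2 1.42.0, the quasi-likelihood test, total counts, other filters and pseudocounts, and leaving out each library. Both procedures were tested on simulated data. The floor of 3 reads covers counting error alone, since PCR copies of a molecule were not told apart. Expression libraries of the study were not analysed here.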

Additional observations from a re-analysis of the deposited data

Results flagged for a closer look

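In 1 of 56 groups of 4 libraries checked, a library stood apart by Dixon's gap ratio. The NNAT total was 3.12 CPM in Angus 3, against 4.22 to 4.39 CPM in the other 3 Angus libraries. Chance flags about 1 group in 20. Angus 3 also had the lowest TMM factor of the 8 libraries (0.677), and the part of that factor in the low value was not tested.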

How the results depend on the processing

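Genes called with a higher first window numbered 2. There was 1 at a pseudocount of 0.5 CPM, 4 with the higher of the first and the upstream window, 3 with SNURF joined (a choice made after seeing the data) and 2 to 3 without single libraries. Genes called lower numbered 2, with 1 at the larger pseudocount, 1 with the upstream window and 1 to 2 without single libraries. The shares of all genes tested, 6.99% higher and 32.0% lower, hold for the main setting only. Shares under the other settings are not given here. Taking the higher of 2 windows cannot lower a ratio in any gene. The median percentile was 86.3 with the upstream window. Log2 ratios turned to 1.30 in PEG10 against the median of the other windows, to 2.51 (upstream window) and 2.76 (SNURF joined) in SNRPN, and to 0.75 in DLK1 (upstream window). No breed alternative called a window or a gene total, except that 1 window (window 3 of DLK1) was called with no minimum fold change, against 0.368% of all windows. Total counts moved the median of all windows by 0.14 and of all gene totals by 0.16 (log2) toward Holstein. With this common shift, log2 breed differences turned to 0.079 (NNAT) and 0.12 (IGF2) in first windows, and in gene totals to 0.058 (IGF2), 0.15 (NNAT), 0.12 (PEG10), 0.14 (PLAGL1), 0.093 (SGCE) and 0.15 (SNRPN). The SNRPN total was 0.013 with no CPM filter. Without single libraries, first windows ranged from -0.028 to 0.14 (SGCE, in the 4 settings that kept it), -0.13 to 0.18 (MEST) and -0.13 to 0.14 (IGF2). Totals ranged from -0.21 to 0.079 (IGF2), -0.043 to 0.092 (MEST), -0.083 to 0.050 (NNAT), -0.090 to 0.062 (PEG10), -0.076 to 0.014 (PLAGL1), -0.18 to 0.069 (SGCE) and -0.22 to 0.16 (SNRPN, in 4 settings). Breed values that changed sign had an unadjusted edgeR p of 0.516 or more. Apart from the shift under total counts, the cause was not tested.

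The sources used here state no pairing of animals with the same number. Correlations of deviations between same-numbered libraries were -0.22, 0.04, -0.02 and 0.11. Those of other pairs are not given here, so a pairing was not excluded. With the replicate block, 0 genes were called higher and 0 lower by first window, since 4 pairs cannot reach the threshold. The SNRPN total under the block was 0.077. Of the breed fold changes under all alternatives, 258 kept their sign and side of the threshold, 8 changed sign under total counts, 21 changed sign under other alternatives and 1 became a call. Windows with few reads limited the comparison, and 51 of 74 were not tested.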

Other observations

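Several neighbours of SNRPN on chromosome 21, named here after their values were seen, also had first windows above their surroundings. MKRN3, a paternally expressed ring finger gene with a single window, held 1.68 CPM, and its log2 excess over the 4 windows around it was 3.40, at percentile 99.7 of autosomal genes. NDN, which encodes necdin, held 0.867 CPM with a log2 excess of 1.90 (percentile 97.0), and MAGEL2 held 1.30 CPM with a log2 excess of 0.87 (percentile 86.2), which is under 2-fold. The other window of MAGEL2 was richer than its first (2.04 CPM, first higher in 0 of 8 libraries). In each of the 3 genes the excess over the surroundings was positive in 8 of 8 libraries. On chromosome 29, beside IGF2, the first window of H19, a maternally expressed non-coding RNA, held 4.85 CPM, at percentile 98.5. The windows around it were also rich, at 3.48 CPM on average. Its log2 excess over them was 0.48 (percentile 76.1), which is under 2-fold.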
